A study of Mus musculus with 6 samples.

Results

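Genes that set vessel tone were examined in endothelial cells of the cerebellum after loss of Frizzled4, an endothelial receptor for Norrin and Wnt proteins. The list held 10 genes of the endothelin, nitric oxide, angiotensin, prostacyclin and sphingosine phosphate pathways, and every probe set annotated to 1 of these symbols alone was taken, without regard to its level. That gave 16 probe sets for 8 genes, of 45037 probe sets and 18193 genes tested in all. Ednra and Ptgs1, the remaining 2 genes of the list, were not analysed here. RNA came from Fz4-/- (Fz4-null) and wild-type mice at postnatal day 16, with cells captured on magnetic beads that carry an antibody to PECAM, an endothelial surface protein. Both genotypes were of mixed sex and of a mixed C57Bl6/129 strain background, and each had 3 preparations on 1 Affymetrix 3' array each. Whether a preparation pooled several animals, and which part of the gene the null allele removes, is not stated in the labels. All values are log2 expression from RMA, a method that corrects background, normalizes the arrays and summarises each probe set, and differences are Fz4-null minus wild type.

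Endothelial cells control the calibre of a vessel by releasing signals that contract or relax the muscle and pericytes around it. Endothelins are short peptides cut from large precursors by the protease ECE1, and act on 2 receptors. The type A receptor on contractile cells constricts, while the type B receptor, encoded by Ednrb, makes endothelium release nitric oxide and prostacyclin and clears endothelin from the blood. Nitric oxide comes from the synthase encoded by Nos3, and prostacyclin from the enzyme encoded by Ptgis. Angiotensin-converting enzyme, encoded by Ace, makes the constrictor angiotensin II and breaks down the dilator bradykinin. S1pr1 encodes the main endothelial receptor for sphingosine 1-phosphate, a blood lipid that steadies junctions between endothelial cells.

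The labels were checked first. Fzd4 read 3.04 to 4.03 on the Fz4-null arrays, against 10.20 to 10.88 on the wild-type arrays, in its brightest probe set. It fell by 6.94 on the log2 scale (SE 0.34, limma adjusted p = 0.00965). With the replicate number as a block the adjusted p was 0.127, and it lay between 0.0691 and 0.169 without Fz4-null replicate 2 or 3 or wild-type replicate 1 or 2, at differences of -7.15 to -6.85. Without both arrays numbered 3 it was 0.249. The defining endothelial genes were bright in both genotypes, with Cldn5, a tight junction protein, at 12.53, 12.44 and 12.84 in Fz4-null and 12.45, 12.51 and 12.89 in wild-type cells. Of 10 such genes, 8 read higher in Fz4-null cells. Pecam1, the gene of the capture antigen, read 11.64, 11.68 and 11.35 in Fz4-null, against 11.24, 11.23 and 10.91 in wild-type cells. Its groups did not overlap (log2 difference 0.43, SE 0.19), as for 9.54% of all genes. Genes of other cell types were present too, such as the pericyte gene Rgs5, which read 11.97 to 12.68 in Fz4-null and 12.59 to 12.83 in wild-type cells. Fz4-null replicate 1 held less of several of these, and both arrays numbered 3 stood apart from the other 4 for 39.8% of genes.

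Of the vasoactive genes, the endothelin receptor gene Ednrb differed most between the genotypes. Ednrb read 2.94-fold higher in the Fz4-null cells, with no overlap between the groups. None of the 8 genes, and none of their 16 probe sets, passed an adjusted p of 0.05 in limma over all probe sets, a threshold that 0.0220% of genes and 0.0111% of probe sets passed. At an unadjusted p under 0.05 there was 1 of the 8 genes, Ednrb, against 4.60% of all genes. In 2 of the 8, Ednrb and S1pr1, the genotypes did not overlap, both higher in Fz4-null cells, against 9.54% of all genes in either direction and 4.59% higher. The median difference of the 8 genes was 0.13, beside 0.0077 over all genes, and was 0.012 without wild-type replicate 1. The differences ran from -0.41 for Edn3 to 1.55 for Ednrb, with 6 above 0 and 2 below.

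**Figure D1:**
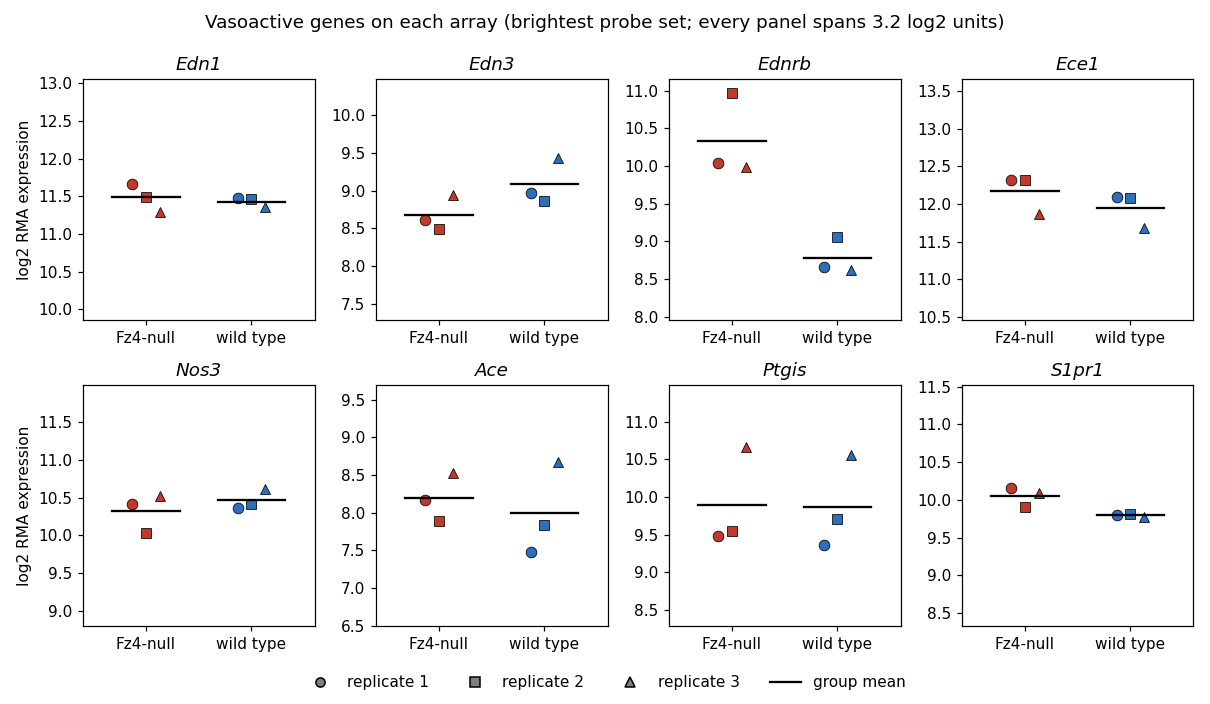
Log2 RMA expression (vertical axis) of the brightest probe set of each of the 8 genes in Fz4-null (left of each panel) and wild-type cells (right), with 1 point an array, shaped by replicate number, and the group mean as a line. The 3 Fz4-null points of Ednrb lie at 9.99 to 10.97, above the wild-type points at 8.62 to 9.05, while the groups overlap in Edn1, Edn3, Ece1, Nos3, Ace and Ptgis.

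Of the endothelin ligands, Edn1 read nearly alike in both genotypes, and Edn3 read slightly lower in the Fz4-null cells. Edn1 encodes endothelin-1, the main endothelin of blood vessels, and its probe set read 11.67, 11.50 and 11.30 on Fz4-null replicates 1 to 3, against 11.48, 11.46 and 11.35 on wild-type replicates 1 to 3. The groups overlapped, and the array numbered 3 was the lowest of each. That is a log2 difference of 0.06, with a 95% interval from -0.37 to 0.48 (limma adjusted p = 1.00). A rise or a fall within that interval is compatible with these arrays.

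Edn3 encodes endothelin-3, which binds the type B receptor with an affinity like that of endothelin-1 and is needed for enteric neurons and melanocytes. Its brightest probe set read 8.61, 8.49 and 8.94 in Fz4-null, against 8.97, 8.86 and 9.43 in wild-type cells. The groups overlapped by a narrow margin, since Fz4-null replicate 3 lay above wild-type replicate 2, and the highest array of each genotype was the one numbered 3. The log2 difference was -0.41 (SE 0.23, 95% interval -0.95 to 0.13, limma adjusted p = 1.00). By replicate number it was -0.37, -0.37 and -0.50, and a fit with the number as a block gave an SE of 0.14 and an unadjusted p = 0.0341 (adjusted p = 0.558). A second probe set read 8.55, 8.27 and 8.54 in Fz4-null, against 8.76, 8.73 and 9.10 in wild-type cells, without overlap (log2 difference -0.41, SE 0.19). The other 2, both dimmer, differed by -0.22 and -0.18, with overlapping groups. All 4 probe sets read lower in Fz4-null cells, but they read 1 transcript pool and are no replicates of the difference.

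Ece1, the endothelin-converting enzyme, read 12.32, 12.32 and 11.87 in Fz4-null, against 12.09, 12.08 and 11.68 in wild-type cells. Within each replicate number the Fz4-null array was the higher, by 0.23, 0.23 and 0.19, a gap smaller than that between the arrays numbered 3 and the rest of either genotype. Between the genotypes the log2 difference was 0.22 (SE 0.22, 95% interval -0.30 to 0.74, limma adjusted p = 1.00). Its dimmer probe sets disagreed in direction, 1 at 0.28 and the other at -0.52.

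Ednrb, the type B endothelin receptor, was higher on every Fz4-null array than on any wild-type array. Its brightest probe set read 10.04, 10.97 and 9.99 on Fz4-null replicates 1 to 3, against 8.66, 9.05 and 8.62 on wild-type replicates 1 to 3. The gap between the lowest Fz4-null and the highest wild-type array exceeded the range of the wild-type arrays but not that of the Fz4-null arrays. Replicate 2 was the highest of each genotype. Means were 10.33 ± 0.56 in Fz4-null and 8.78 ± 0.24 in wild-type cells (SD, n = 3 each). The log2 difference was 1.55 (SE 0.31, 95% interval 0.82 to 2.29), with limma unadjusted p = 0.00164 and adjusted p = 0.571. By unadjusted p this probe set ranked at 126 of 45037.

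The other Ednrb probe sets read higher in the Fz4-null cells by similar amounts. One read 6.26, 7.82 and 6.16 in Fz4-null, against 5.45, 5.07 and 4.97 in wild-type cells, without overlap (log2 difference 1.58, SE 0.45, limma adjusted p = 0.921). The other read 5.41 to 7.92 in Fz4-null, against 4.80 to 5.59 in wild-type cells (log2 difference 1.48, SE 0.60, limma adjusted p = 1.00). Here the groups overlapped, since Fz4-null replicate 3 lay below wild-type replicate 2. Of the 16 vasoactive probe sets, the 3 with an unadjusted p under 0.05 were these 3 of Ednrb, against 4.46% of all probe sets. They read 1 transcript pool on the same arrays, so they count as 1 gene and are no replicates of the difference. In 4 of the 16 the groups did not overlap, against 9.27%, namely 2 of Ednrb, 1 of Edn3 and that of S1pr1.

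The Ednrb difference kept its sign and stayed short of the threshold under all 17 alternatives in the processing, at log2 1.23 to 1.73 with limma adjusted p from 0.300 to 1.00. By replicate number it was 1.38, 1.92 and 1.36, and with the number as a block the SE was 0.18 and the adjusted p = 0.364. Fz4-null replicate 2 carried the highest value in every Ednrb probe set, and without it the log2 difference was 1.23.

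**Figure D2:**
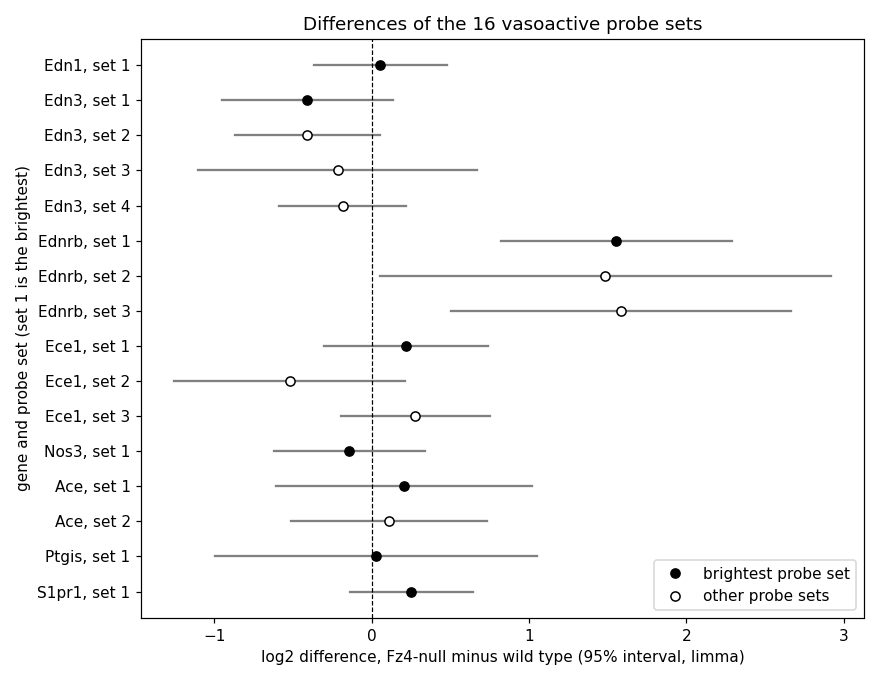
Log2 difference, Fz4-null minus wild type (horizontal axis), of all 16 probe sets of the 8 genes, with 95% intervals from limma; filled points are each gene's brightest probe set and open points its others, in order of wild-type level. The 3 intervals of Ednrb lie above 0, and every other interval spans 0.

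Ednrb is also transcribed in astrocytes, so levels of marker genes were set beside it. In bulk preparations fewer cells of a type and less RNA per cell cannot be told apart. The mean of 8 astrocyte and Bergmann glia genes lay at 7.34, 9.29 and 9.17 on Fz4-null replicates 1 to 3, against 8.73, 9.16 and 9.53 on wild-type replicates 1 to 3. Of these 8 genes, 7 read lower in Fz4-null cells, and 0 passed the limma threshold (1 at an unadjusted p under 0.05). The lowest of the 6 list means was that of Fz4-null replicate 1. The 10 pericyte and smooth muscle genes averaged 9.40, 10.37 and 10.61 in Fz4-null, against 10.36, 10.30 and 10.60 in wild-type cells, again with the lowest value on Fz4-null replicate 1. The 10 endothelial genes averaged 11.67, 11.58 and 11.52 in Fz4-null, against 11.33, 11.36 and 11.40 in wild-type cells, so that the groups did not overlap. Of those 10 genes, 8 read higher in Fz4-null cells and 0 passed (1 at an unadjusted p under 0.05). Their median difference was 0.24, over a range from -0.07 to 0.49. The part of these shifts in the Ednrb difference was not tested beyond these values.

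**Figure D3:**
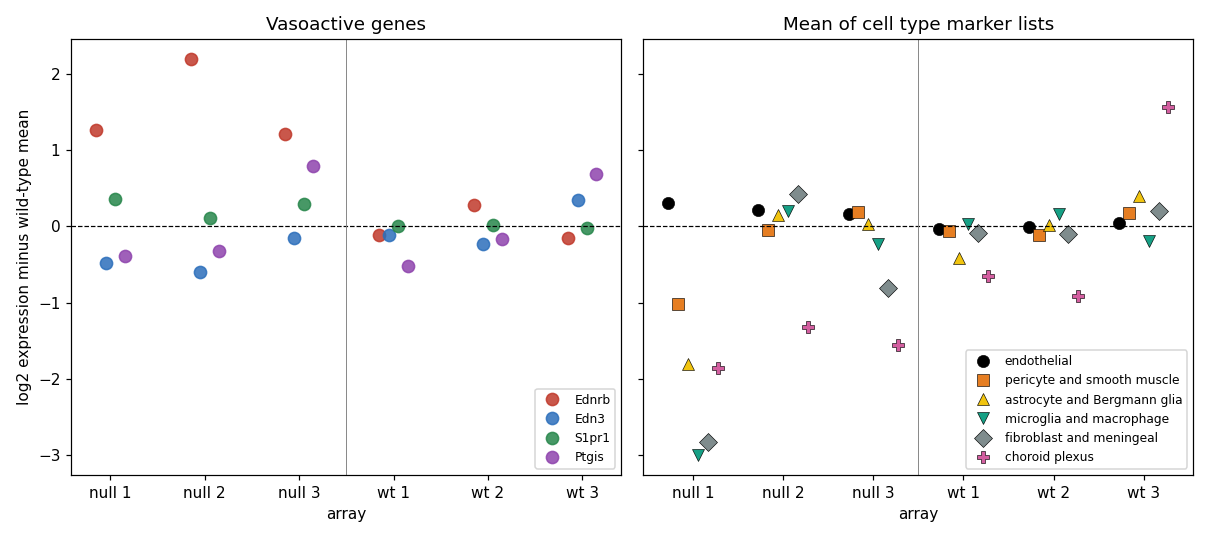
Log2 expression minus the wild-type mean (vertical axis) on each of the 6 arrays, Fz4-null to the left of wild type, for 4 vasoactive genes (left panel, brightest probe set) and for the mean of 6 marker lists (right panel). Ednrb is high on all 3 Fz4-null arrays. The endothelial list lies at 0.31, 0.22 and 0.16 on these, against -0.03 to 0.04 on the wild-type arrays. On Fz4-null replicate 1 the microglia list lies at -2.99, the astrocyte list at -1.80 and the pericyte list at -1.02, the lowest of each. The fibroblast list lies at -2.83, 0.43 and -0.81 on Fz4-null replicates 1 to 3. The choroid plexus list is lowest on the 3 Fz4-null arrays.

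Promoter sequence is shown for the 2 ligands and the receptor, because Frizzled4 signals through beta-catenin to Tcf/Lef factors. No link between promoter sequence and the expression values was tested. Of the 10 listed genes, 7 have windows in RefSeq's annotation of GRCm38.p6. The windows are the 250 bases before the annotated start, written 5′ to 3′ on the gene's strand, with capitals for the Tcf/Lef core CTTTGA or the Sox core ACAAT on either strand. These motifs share no full match, and they occur in 13.8% and 27.7% of all such windows.
Ednrb (chr14:103843702-103843951, minus strand): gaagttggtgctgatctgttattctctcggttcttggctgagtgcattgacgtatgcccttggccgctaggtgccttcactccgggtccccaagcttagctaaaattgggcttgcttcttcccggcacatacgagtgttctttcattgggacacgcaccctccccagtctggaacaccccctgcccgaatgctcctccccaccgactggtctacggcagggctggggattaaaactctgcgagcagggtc
Edn3 (chr2:174760369-174760618, plus strand): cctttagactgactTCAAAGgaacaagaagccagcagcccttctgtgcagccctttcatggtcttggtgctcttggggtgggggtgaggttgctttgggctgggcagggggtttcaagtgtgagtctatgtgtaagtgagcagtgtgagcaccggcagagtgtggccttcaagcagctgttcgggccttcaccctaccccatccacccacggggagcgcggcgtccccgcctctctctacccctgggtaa
Edn1 (chr13:42301226-42301475, plus strand): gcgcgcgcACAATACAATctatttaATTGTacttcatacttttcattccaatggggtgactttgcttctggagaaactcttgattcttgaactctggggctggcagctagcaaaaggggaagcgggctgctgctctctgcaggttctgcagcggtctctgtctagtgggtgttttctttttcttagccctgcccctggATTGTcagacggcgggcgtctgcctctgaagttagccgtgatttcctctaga
Over all 11 windows of these 7 genes, of which Ece1 and Ace have more than 1 start, 3 held a Tcf/Lef core and 2 a Sox core. The 3 with a Tcf/Lef core belonged to Edn3, Ece1 and Ace. The Ednrb window held neither core. The Edn3 window held 1 Tcf/Lef core, starting 236 bases before the start of transcription, and no Sox core. The Edn1 window held 4 Sox cores, 2 of them next to each other near its 5′ end, and no Tcf/Lef core. A match of these letters is not a site, and their absence from a window of this length says nothing of distal elements.

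Nos3, the endothelial nitric oxide synthase, did not separate the genotypes. It read 10.42, 10.02 and 10.52 in Fz4-null, against 10.36, 10.42 and 10.61 in wild-type cells. Fz4-null replicate 2, the array with the most Ednrb, read lowest, and the other 5 arrays lay within a narrow band. Its log2 difference was -0.14 (SE 0.20, 95% interval -0.62 to 0.34, limma adjusted p = 1.00), and without Fz4-null replicate 2 it was 0.0074.

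Ace, the angiotensin-converting enzyme of endothelial surfaces, gave no difference between the genotypes beyond its spread, and its probe sets did not follow each other across arrays. The brighter one read 8.17, 7.90 and 8.52 in Fz4-null, against 7.47, 7.83 and 8.67 in wild-type cells, with the arrays numbered 3 highest in both genotypes. The dimmer one read 8.02, 8.10 and 7.36 in Fz4-null, against 7.66, 7.99 and 7.51 in wild-type cells, with the arrays numbered 3 lowest. The arrays numbered 3 thus lay 0.75 above the other 4 in the first probe set and -0.51 from them in the second. The log2 differences between the genotypes were 0.21 (SE 0.34) and 0.11 (SE 0.26), both with limma adjusted p = 1.00.

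Ptgis, the prostacyclin synthase, varied more by replicate number than by genotype. It read 9.48, 9.55 and 10.67 in Fz4-null, against 9.36, 9.71 and 10.55 in wild-type cells. The arrays numbered 3 of both genotypes lay above all others, by 1.09 on average. The log2 difference between the genotypes was 0.03 (95% interval -0.99 to 1.05, limma adjusted p = 1.00), and within replicate numbers it was 0.12, -0.15 and 0.11. Ptgis is transcribed in fibroblasts too, and the 8 fibroblast and meningeal genes averaged 6.86, 10.11 and 8.87 in Fz4-null, against 9.59, 9.58 and 9.88 in wild-type cells. All 8 read lower in the Fz4-null group, 0 past the limma threshold and 1 at an unadjusted p under 0.05. The part of this list in the Ptgis values was not tested.

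S1pr1, the sphingosine 1-phosphate receptor, read a little higher on every Fz4-null array. It read 10.15, 9.90 and 10.09 in Fz4-null, against 9.80, 9.82 and 9.77 in wild-type cells. The wild-type arrays lay closer together than for any other of the 16 probe sets, and Fz4-null replicate 2 was the nearest to them. The log2 difference was 0.25 (SE 0.16, 95% interval -0.14 to 0.64, limma adjusted p = 1.00), a 1.19-fold gap. The 10 endothelial genes had a median difference of 0.24 but ranged from -0.07 to 0.49, with Cldn5 at -0.01 and Emcn at 0.41. Their part in the S1pr1 value was not tested.

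**Figure D4:**
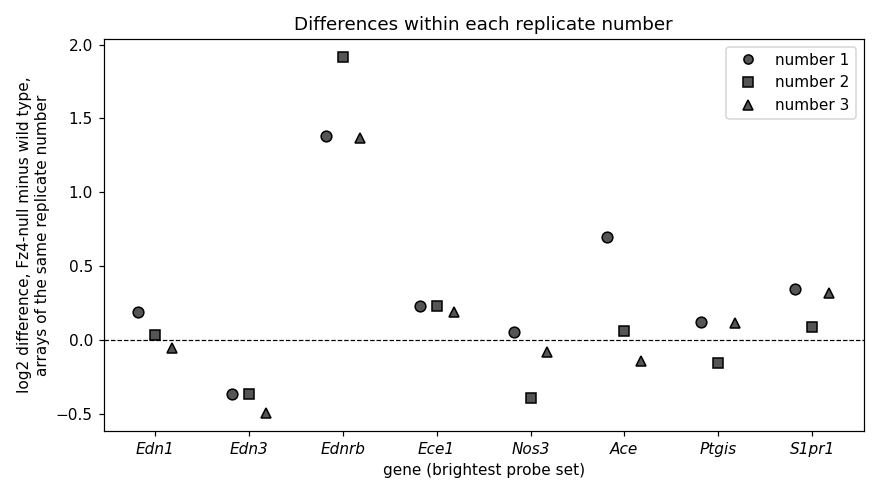
Log2 difference, Fz4-null minus wild type (vertical axis), between arrays of the same replicate number for the brightest probe set of each of the 8 genes. Ednrb lies at 1.36 to 1.92, Edn3 at -0.50 to -0.37 and Ece1 at 0.19 to 0.23, while Edn1, Nos3, Ace and Ptgis have differences of both signs.

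Across the 8 genes the shift of the arrays numbered 3 differed in sign. They read higher than the other 4 arrays, without overlap, in Nos3, Ace and Ptgis, and lower in Edn1 and Ece1, which makes 5 of the 8 against 39.8% of all genes. For Ednrb and S1pr1 they did not stand apart, and for Edn3 the brightest probe set did not either.

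Other genes of the same pathways were read from their brightest probe set. Of 59 such genes, 57 were measured and 0 passed the limma threshold in either direction, while 5 had an unadjusted p under 0.05, which is 8.77% against 4.60% of all genes. Of the 57, 21 read higher and 36 lower in Fz4-null cells, with a median of -0.07. Over all genes 9333 read higher and 8860 lower, with a median of 0.0077. In 7 of the 57, or 12.3%, the genotypes did not overlap, against the 9.54% of all genes. The group is described by these counts alone.

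The largest of these differences belonged to Bdkrb2, the constitutive bradykinin receptor, through which endothelium releases nitric oxide and prostacyclin. It read 8.48, 7.42 and 8.04 in Fz4-null, against 4.68, 5.87 and 5.42 in wild-type cells, with a wide gap between the groups. The log2 difference was 2.65 (SE 0.39), a 6.29-fold gap, with limma unadjusted p = 0.000271 and adjusted p = 0.318. Its other probe set read 3.04 to 3.47 in Fz4-null and 3.29 to 3.56 in wild-type cells, near or below the lower quartiles of the arrays (3.46 to 3.64), and did not follow it. The mean of both probe sets differed by 1.27. Among the 8 measured genes of the angiotensin and bradykinin group the median was -0.31 (0.019 without Fz4-null replicate 1), and Bdkrb1, the inducible bradykinin receptor, differed by -0.32 from a level below those quartiles.

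Among 14 prostanoid genes, Ptges and Slco2a1, a synthase and a transporter of prostaglandin E2, differed in opposite directions. Ptges, which makes prostaglandin E2, read 8.77, 9.59 and 9.03 in Fz4-null, against 10.29, 10.54 and 10.04 in wild-type cells. Its log2 difference was -1.16 (SE 0.27, limma adjusted p = 0.755), and its other probe sets differed by -0.94 and -1.10, all 3 without overlap. Slco2a1, which takes prostaglandins up into cells, read 9.64, 9.84 and 9.37 in Fz4-null, against 9.28, 8.34 and 8.66 in wild-type cells. Its log2 difference was 0.86 (SE 0.28, limma adjusted p = 1.00), and its other 3 probe sets read higher in Fz4-null cells by 0.48, 0.85 and 1.42. In those at 0.48 and 0.85 the groups overlapped. The median of the group was -0.22, and without Fz4-null replicate 1 it was 0.041. Choroid plexus genes were lower on the same arrays, with a list mean of 4.71 to 5.24 on the Fz4-null arrays. On wild-type replicates 1 to 3 the list mean was 5.90, 5.64 and 8.13. Among the wild-type arrays, replicate 3 was thus the highest for this list, but it was the lowest for Ptges. Among the Fz4-null arrays, both the list and Ptges were lowest on replicate 1 and highest on replicate 2. All 8 choroid plexus genes read lower in the Fz4-null group, with 0 past the limma threshold. At an unadjusted p under 0.05 there were 4 of the 8, against 4.60% of all genes. The part of this list in the Ptges value was not tested.

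In the nitric oxide group of 13 genes the median was -0.23, and -0.067 without Fz4-null replicate 1. The neuronal synthase Nos1 read 5.35 to 6.44 in Fz4-null, against 6.49 to 6.79 in wild-type cells (log2 difference -0.71, SE 0.30, limma adjusted p = 1.00), while 1 of its 3 dimmer probe sets read higher. Without Fz4-null replicate 2 the Nos1 difference was -0.42, and the mean of its probe sets differed by -0.10. Pde5a, which breaks down the cyclic GMP that nitric oxide raises, read 9.77, 10.53 and 10.25 in Fz4-null, against 10.94, 10.85 and 10.62 in wild-type cells (log2 difference -0.63, SE 0.24). The groups did not overlap in the brightest probe set of either gene, but they did in all the dimmer ones. The dimmer Pde5a probe sets differed by -0.31 and -0.34. With 1 array left out, the difference in the brightest Pde5a probe set ranged from -0.80 to -0.42.

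The sphingosine phosphate group of 9 genes had a median of -0.04. Its transporter Spns2, which exports sphingosine 1-phosphate from endothelium, differed by 0.58 (SE 0.33), and the receptor gene S1pr4 by 0.49 (SE 0.32), with overlapping groups. In the adrenomedullin, apelin and natriuretic peptide group of 10 genes the median was 0.05. Ramp3, a partner of the adrenomedullin receptor, read 6.84, 6.55 and 7.89 in Fz4-null, against 5.52, 4.36 and 7.03 in wild-type cells, higher within each replicate number but with overlapping groups (log2 difference 1.46, SE 0.69). Without wild-type replicate 2 the Ramp3 difference was 0.82, and without wild-type replicate 3 it was 2.15. Npr2, the receptor for C-type natriuretic peptide, differed by 0.84 (SE 0.36), with overlapping groups, and by 0.58 to 1.23 with 1 array left out. In the endothelin group of 3 genes, Mme, a protease that degrades endothelin, differed by 0.43 (SE 0.29) and Edn2, the remaining ligand, by -0.18 at a mean level below the lower quartiles. The dimmer Mme probe set differed by 0.04, also at a mean level below those quartiles, and the mean of the Mme probe sets by 0.24. All 6 of these genes had limma adjusted p = 1.00. With 1 array left out, the differences ranged from 0.33 to 0.94 for Spns2, from 0.21 to 0.76 for S1pr4, from 0.28 to 0.71 for Mme and from -0.33 to -0.0065 for Edn2.

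**Figure D5:**
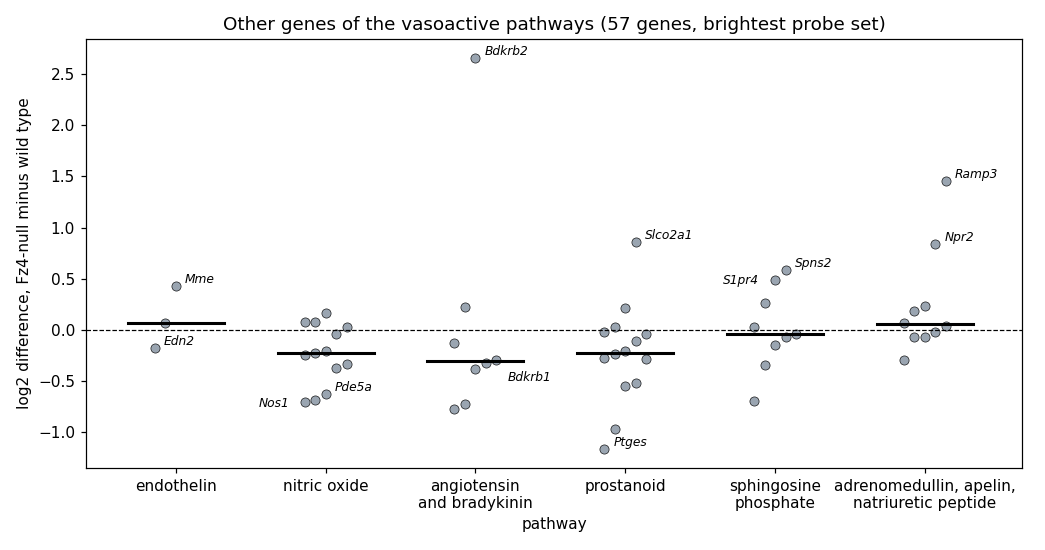
Log2 difference, Fz4-null minus wild type (vertical axis), of 57 other genes by pathway, with 1 point a gene and the group median as a line. Bdkrb2 at 2.65 and Ramp3 at 1.46 lie highest and Ptges at -1.16 lowest, and all group medians lie between -0.31 and 0.07.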

How the data were processed

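The deposited table holds log2 expression per probe set that the authors made with RMA, per the submitters' processing notes, whose version the notes do not state. Near background RMA shrinks differences. Of 45101 probe sets, 64 Affymetrix controls were left out. The platform annotation gave 34945 probe sets 1 gene symbol, and a gene was represented by its brightest one over 6 arrays.

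The comparison of genotypes used limma 3.58.1 under R 4.3.3 (lmFit, eBayes, two-sided, all 6 arrays, no covariate), with Benjamini-Hochberg adjustment over 45037 probe sets at 0.05. The code was tested on simulated data with independent noise on each array, which hold no shift shared between arrays. P-values measure the spread between preparations, which the labels do not say came from separate animals. An exact permutation test of 3 against 3 arrays cannot go below 0.1 and was not used. The number of arrays limits the precision.

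The members and lists were chosen with earlier results of these data known. Named were all members, Fzd4, every related gene past the threshold and the 2 with the lowest p in each related pathway. Of a marker list at most the 3 brightest were named, with Pecam1 added as the gene of the capture antigen.

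Same-numbered arrays deviated together from their group means, at r = 0.24, 0.30 and 0.57 over probe sets. All lay above the 0.1 taken to mark pairs, though unlike numbers reached 0.12 and 0.26. The higher of these was Fz4-null replicate 2 with wild-type replicate 1. Deviations within a group cancel out, so a shift shared by the arrays numbered 3 makes the remaining arrays correlate across genotypes. Whether replicates 1 and 2 match by number is not settled by this criterion. The replicate block is an alternative, as are other normalizations, a filter on dim probe sets, a robust variance trend, array weights, other readings of a gene, an adjusted p of 0.1 and each array left out. Leaving out both arrays numbered 3, and a term for them, were added after seeing the data. Plots were made in matplotlib 3.10.9.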

Additional observations from a re-analysis of the deposited data

How the results depend on the processing

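No member gene, member probe set or related gene passed the threshold under any alternative run (limma; 1 of 8 members and 5 of 57 related genes had an unadjusted p under 0.05). With the replicate block, members with an unadjusted p under 0.05 numbered 2 (Ednrb and Edn3), as they did with a term for the arrays numbered 3, and related genes 9 of 57 (15.8%) under either, against 8.89% of all genes with the block and 9.0% with the term. Related genes with such a p numbered 8 with array weights (8.54% of all genes) and 8 without both arrays numbered 3 (8.23%), and with 1 array left out from 2 without wild-type replicate 2 (3.06%) to 7 without wild-type replicate 3 (8.34%). Member genes without overlap numbered 6 of 8 without both arrays numbered 3, where 40.9% of all genes do not overlap, and 2 to 5 when 1 array was left out, the 5 without Fz4-null replicate 3 (19.7% of all genes). Over all probe sets, 5 passed; 8 did at an adjusted p of 0.1, 21 with array weights, 0 with the block (1617 genes at an unadjusted p under 0.05), 2 with the term for the arrays numbered 3, 0 without both of those, and 0 to 2 when 1 array was left out, and the cause was not tested.

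With 1 array left out, the group medians of the related genes ranged from -0.11 to 0.30 for endothelin, from -0.13 to 0.089 for sphingosine phosphate and from -0.022 to 0.21 for adrenomedullin, apelin and natriuretic peptides. Differences near 0 changed sign. With 1 array left out, Edn1 ranged from -0.034 to 0.15, Nos3 from -0.24 to 0.0074, Ptgis from -0.36 to 0.37, Ace from -0.053 to 0.54 and its dimmer probe set from -0.027 to 0.34, and the third brightest Edn3 probe set from -0.42 to 0.18. Ptgis also read -0.019 with cyclic loess, -0.012 with quantile normalization and -0.016 without both arrays numbered 3. That Edn3 probe set read 0.0053 with array weights, and the mean of the Ece1 probe sets -0.0087. The brightest probe sets of Ednrb, Edn3 and S1pr1 kept their sign throughout, Edn3 at -0.54 to -0.24 and S1pr1 at 0.20 to 0.32.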
